A study of Mus musculus with 23 samples.

Results

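The genes of fatty acid uptake and oxidation were followed in left ventricle RNA of mice that had inhaled e-cigarette aerosol or filtered air. There were 34 genes, named from the pathway and matched by symbol and Ensembl gene ID to 34 of the 49315 genes counted. All 34 passed the filter on low counts, which kept 15500 genes. The mice were of the inbred strain FVB, and they breathed filtered air, the E-cigarette vehicle, or that vehicle with nicotine, with sessions of 4 hours, 5 to the week, kept up over 3 months. Exposure began at either 3 weeks or 3 months of age, so the age at the start cannot be told apart from the age at the end. The younger start had 4 air libraries (numbers 1, 2, 4 and 5), 3 vehicle libraries (1, 2 and 4) and 4 nicotine libraries (2, 3, 5 and 6). The older start had 4 of each, numbered 1, 2, 4 and 5 in air and 1 to 4 in vehicle and in nicotine. Vehicle libraries are titled YPGVG at the younger start and APG at the older, and the titles do not say whether the vehicle was the same. Nicotine mice inhaled the vehicle too, so nicotine against air compares the full aerosol, and nicotine against vehicle compares the nicotine in it. Ventricles were flash frozen and RNA was taken with Trizol. The labels give no sex or batch and do not state that each library came from its own animal, so the p-values speak of the spread between these libraries, which could be technical in part.

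The heart burns fatty acids as its main fuel. They enter the cardiomyocyte with the help of Cd36 and Slc27a1, are carried by the binding protein Fabp3, and are joined to coenzyme A by Acsl1. The carnitine shuttle (Cpt1, Slc25a20 and Cpt2) moves the acyl groups into mitochondria, under the control of malonyl-CoA, which Acacb makes and Mlycd removes. Inside, each turn of beta-oxidation is a dehydrogenation, a hydration, another dehydrogenation and a thiolysis, and the electrons of the opening step pass through the flavoprotein Etfa-Etfb and Etfdh to ubiquinone. Thioesterases, uncoupling proteins and the droplet coat protein Plin5 act beside this chain. Many of these genes are known targets of the nuclear receptors PPAR and ERR.

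Library totals ran from 12297955 to 17821550 counts, and the common biological coefficient of variation was 0.234 among the 11 younger and 0.105 among the 12 older libraries. The 8 cardiomyocyte markers, such as Myh6 and Tnnt2, summed to 76350 to 94970 CPM (counts scaled to a common library size) in the 23 libraries. Adipocyte markers stayed under 10 CPM in every library for 7 of 8 genes (Adipoq 0 to 1.66 CPM), as did 3 of 4 brown adipocyte markers (Ucp1 at 0 in 19 libraries) and 7 of 8 skeletal muscle markers (Myh4 at 0 in 16). Sums of these 3 lists ran from 45.5 to 77.3, 17.4 to 31.8 and 41.5 to 98.1 CPM, mostly from Lipe, Cidea and Mybpc2. In 3-week vehicle, libraries 1 and 2 stood apart from library 4. Genes that are not protein coding took 2.61% and 2.24% of their counts against 1.47%, with 1.19% to 1.55% in 3-week air. Their levels also leaned toward short genes: the rank correlation of a library's deviation from the gene means with exonic length, across genes, was -0.211 and -0.277 in libraries 1 and 2 and 0.186 in library 4. Blood markers summed to 2365 CPM in vehicle library 1, 468 in library 2 and 500.2 in library 4, against 506 to 934 CPM in 3-week air. In bulk RNA, fewer cells of a type and less RNA per cell cannot be told apart.

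The members spanned a wide range of levels when set per exonic length. Fabp3 was the highest, at a mean of 3526 CPM per kilobase over the 23 libraries, followed by the dehydrogenase Acadl (704), the thiolase Acaa2 (567.9), Ech1 (469), Etfa (417) and Cd36 (368). The lowest were Ucp3 (18.1), Ucp2 (10.8), Cpt1a (5.38) and Acot1 (1.99). Cpt1b, the muscle form of the outer carnitine acyltransferase, stood at 32.3 CPM per kilobase against 5.38 for the liver form Cpt1a, and the ratio of the pair ran from 3.09 to 8.76 among libraries. Between neighbours in this order the ranges over libraries overlapped, except that Fabp3 (2984 to 4578 CPM per kilobase) lay above Acadl (451 to 778) in every library. Near the bottom the overlaps were narrow, between Ucp2 (7.07 to 14.9) and Cpt1a (2.93 to 7.4) and between Cpt1a and Acot1 (0.885 to 3.24). Some counts are uncertain because other genes share the sequence: of 50-base words, 78.6% in Cpt1b lie also in the readthrough model Gm44502, 44.8% in Etfb lie in another gene (43.8% in Gm45233), 29.2% in Fabp3 lie in the pseudogene Fabp3-ps1, 19.7% in Hadhb lie in another gene, and Acot1 and Acot2 share words with each other (13.6% and 24.5%). Acadvl overlaps Dvl2 on the opposite strand by 1151 exonic bases, and whether counting used the strand is not given in the sources used here.

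Upstream sequence was read from RefSeq windows on GRCm38.p6, from 250 bases before to 50 bases after a gene start, which matched 28 of 34 members with 32 windows. PPAR with its partner RXR is known to bind a direct repeat of the half-site AGGTCA with 1 base between the copies. Searched on both strands, this repeat was in 0 of the 32 member windows and in 0.0396% of all 32851 windows, and a looser repeat of AGGNCA with the same spacing in 0 and in 0.381%. The half-site AGGTCA alone lay in 9 member windows (28.1%), of 8 members, against 16.3% of all windows. AAGGTCA, the core of the ERR element, which contains the half-site, lay in 2 member windows (6.25%, Acadm and Acacb) against 4.72%, and the extended TNAAGGTCA in 0 against 1.28%. Below are the 250 bases before the start of 3 members, chosen because their values return throughout. Acadm (ENSMUSG00000062908) is the medium-chain dehydrogenase and Acadvl (ENSMUSG00000018574) the very-long-chain one. Both lay below all air libraries in 3-week vehicle libraries 1 and 2 and within the air range in library 4. Ucp3 (ENSMUSG00000032942) had the largest fold changes between groups. The 3 stretches lie at chr3:153944644-153944893 (minus strand), chr11:70015429-70015678 (minus strand) and chr7:100472741-100472990 (plus strand). Capitals mark the half-site on either strand, so that TGACCT is its reverse complement, and in Acadm TGACCTT is the ERR core read the same way. Acadm has 1 half-site, Acadvl 1 and Ucp3 2, so all 3 are among the 8 of 28 members with one. A match is a run of letters and no evidence of binding.
Acadm: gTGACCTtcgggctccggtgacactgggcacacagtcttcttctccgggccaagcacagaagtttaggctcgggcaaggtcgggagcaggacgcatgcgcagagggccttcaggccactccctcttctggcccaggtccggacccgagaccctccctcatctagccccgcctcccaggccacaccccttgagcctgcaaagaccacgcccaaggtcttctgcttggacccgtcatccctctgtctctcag
Acadvl: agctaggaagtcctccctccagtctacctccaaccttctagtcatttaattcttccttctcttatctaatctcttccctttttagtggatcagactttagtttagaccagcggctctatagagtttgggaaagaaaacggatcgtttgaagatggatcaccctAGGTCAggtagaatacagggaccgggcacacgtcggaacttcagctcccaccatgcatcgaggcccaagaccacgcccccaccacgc
Ucp3: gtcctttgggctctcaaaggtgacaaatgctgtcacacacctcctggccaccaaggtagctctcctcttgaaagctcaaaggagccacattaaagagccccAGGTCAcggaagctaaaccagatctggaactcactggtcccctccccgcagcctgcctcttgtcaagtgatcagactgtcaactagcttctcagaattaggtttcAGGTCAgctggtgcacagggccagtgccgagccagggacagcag

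The first comparison asks what vehicle aerosol did in mice exposed from 3 weeks of age. Members of most steps were lower than in air: 19 of 34 fell and 1, Etfb, rose (edgeR quasi-likelihood test over all 23 libraries, Benjamini-Hochberg adjusted p under 0.05), while 16.2% of all genes tested were called, 6.92% lower and 9.27% higher. The median log2 fold change was -0.44 over the 34 members and 0.02 over all genes. The low readings were those of vehicle libraries 1 and 2. In each of these, 26 members lay below all 4 air libraries (36.4% and 31.9% of all genes tested did so), whereas in vehicle library 4 it was 9 (18% of all genes). The calls rest on single libraries: no member passed without air library 1, air library 5, vehicle library 1 or vehicle library 2, and 25 passed without vehicle library 4, when 44% of genes did. With only the younger libraries in the fit 0 of 14856 genes passed, and 21 members and 3267 genes had an unadjusted p under 0.05. In the fit of all libraries 26 members did, with 37.3% of genes. The median of the members was -0.44 log2 in the fit of the younger libraries and -0.08 without vehicle libraries 1 and 2. DESeq2 called 24 members, with 22.1% of genes, and limma with sample weights 26, with 37.7%. The limma weights of vehicle libraries 1, 2 and 4 were 0.374, 2.49 and 0.151, so library 4 counted least in that fit. The calls given by step below come from the edgeR fit of all 23 libraries. That fit shares its estimate of spread between ages, although the common coefficient of variation was 0.234 among younger and 0.105 among older libraries. With the younger libraries alone, none of these calls passed.

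**Figure D1:**
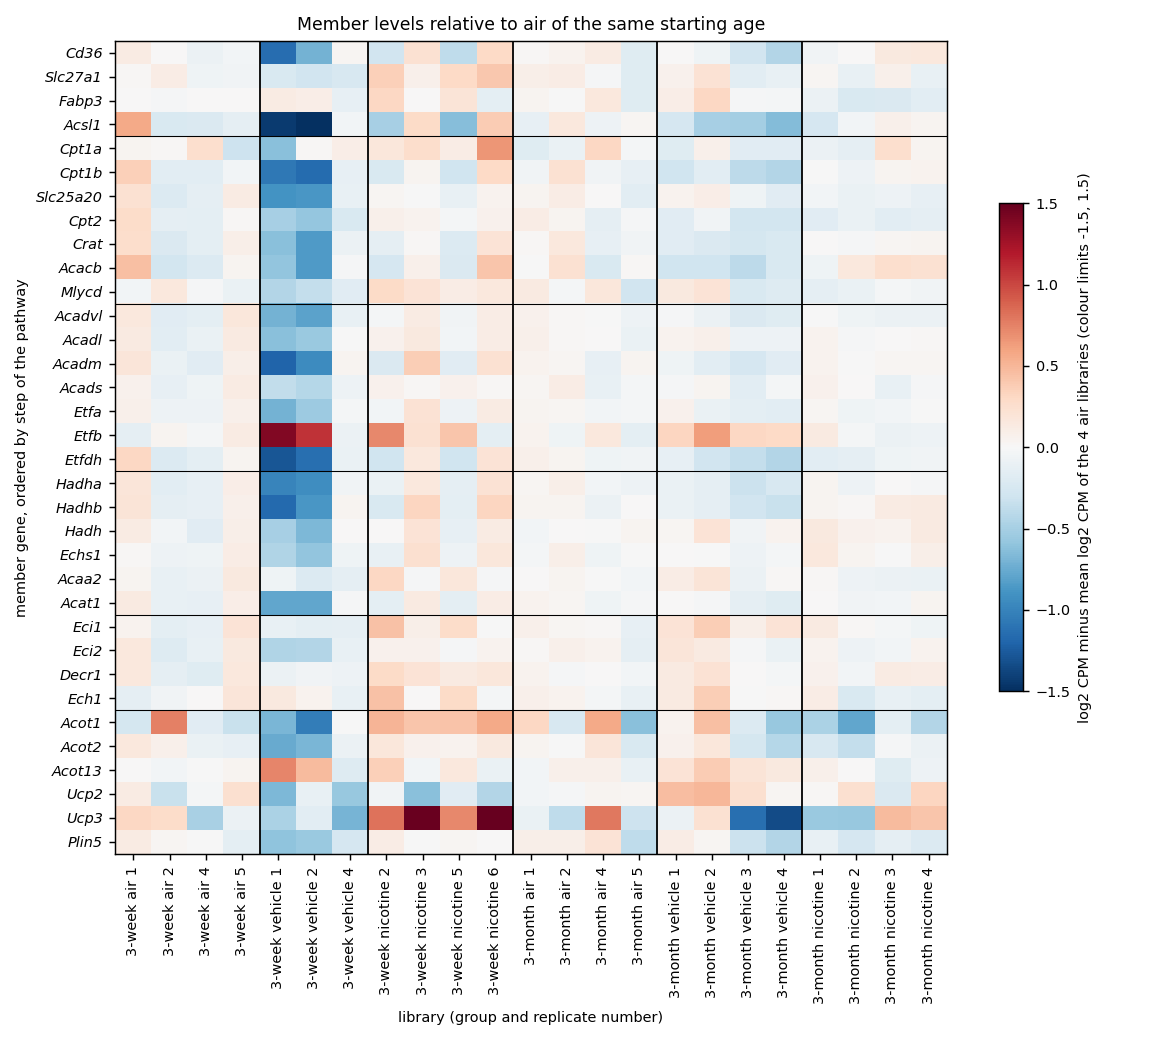
Level of each of the 34 members (rows, by pathway step) in each of the 23 libraries (columns), as log2 CPM minus the mean log2 CPM of the 4 air libraries of the same starting age, on a colour scale that stops at -1.5 and 1.5. Columns 3-week vehicle 1 and 2 are blue in most rows, with medians of -0.612 and -0.567, Etfb and Acot13 are red there, and 3-week vehicle 4 has a median of -0.0901.

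In uptake and activation, 1 of 4 members fell. Libraries are listed in the order of their numbers throughout. Cd36, the membrane transporter of long-chain fatty acids, read 1354, 1248, 1168 and 1204 CPM in air, 560.1, 757 and 1267 in vehicle and 1021, 1460, 956 and 1533 in nicotine libraries. The first 2 vehicle libraries were the lowest of the 11, vehicle library 4 was within the air range, and the difference did not pass (-0.53 ± 0.20 log2 ± SE, adjusted p = 0.0677). Slc27a1, another transporter, read 234, 248.9, 221 and 223 CPM in air, 198, 189.9 and 195 in vehicle and 296, 244, 285 and 305 in nicotine libraries. Here all 3 vehicle libraries lay below all air libraries, although by little (-0.25 ± 0.10 log2, adjusted p = 0.0881). Acsl1, which activates long-chain acids, had the lowest fold change of all members and fell, at 1187, 684, 690.3 and 729 CPM in air, 296, 279 and 777 in vehicle and 568.2, 974, 513 and 1043 in nicotine libraries (-0.87 ± 0.29 log2, adjusted p = 0.0484). Air library 1 was far above the other air libraries and the vehicle readings themselves ran from 279 to 777 CPM. Fabp3, the abundant cytosolic carrier, read 2732, 2687, 2721 and 2716 CPM in air, 2948, 2904 and 2498 in vehicle and 3363, 2730, 3096 and 2456 in nicotine libraries, and its groups overlapped (0.04 ± 0.11 log2, adjusted p = 0.827).

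In the carnitine shuttle and its control, 4 of 7 members fell and all 7 fold changes were negative. Cpt1b, which attaches carnitine at the outer membrane, read 137, 96, 95.9 and 104 CPM in air, 51.1, 47.9 and 98.7 in vehicle and 91.2, 110.5, 87.2 and 132 in nicotine libraries (-0.72 ± 0.20 log2, adjusted p = 0.0279). Vehicle libraries 1 and 2 held about the same low level and vehicle library 4 lay among the air libraries. Slc25a20, the carrier of acylcarnitine across the inner membrane, repeated this, at 174, 128, 135 and 162 CPM in air, 80.1, 81.3 and 138 in vehicle and 152, 148, 138 and 155 in nicotine libraries (-0.58 ± 0.15 log2, adjusted p = 0.0239). Cpt2, which releases carnitine inside, read 254, 192, 191 and 213 CPM in air, 149, 141 and 179.5 in vehicle and 222, 219, 207 and 220.4 in nicotine libraries (-0.44 ± 0.11 log2, adjusted p = 0.0215). For Cpt2 all vehicle libraries were below all air libraries, as they were for Slc27a1, Mlycd and Plin5. These 4 members without overlap compare with 4.19% of all genes lower in this way, and 0 members were higher without overlap against 5.06%. Crat, which makes acetylcarnitine, fell by 0.49 on the log2 scale (adjusted p = 0.0324). Mlycd (-0.32 ± 0.12 log2, adjusted p = 0.0619), Acacb (-0.47 ± 0.19, 0.0827) and Cpt1a (-0.15 ± 0.17, 0.537) did not pass. Mlycd, whose product removes malonyl-CoA, read 118, 135, 119.7 and 114 CPM in air, 89.3, 95 and 108 in vehicle and 148, 140.2, 132 and 136 in nicotine libraries.

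All 7 acyl-CoA dehydrogenases and electron carriers were called, 6 lower and Etfb higher. Acadvl read 1013, 807, 823 and 1021 CPM in air, 556, 523 and 844 in vehicle and 893, 991, 875 and 981 in nicotine libraries (-0.52 ± 0.13 log2, adjusted p = 0.0239). Acadm, which takes medium chains, read 1512, 1246, 1189 and 1416 CPM in air, 582, 696 and 1371 in vehicle and 1147, 1718, 1182 and 1565 in nicotine libraries (-0.60 ± 0.20 log2, adjusted p = 0.0434). In both, vehicle libraries 1 and 2 held the lowest readings of the younger mice and vehicle library 4 lay inside the air range. Acadl, for long chains, fell by 0.37 and Acads, for short chains, by 0.29 on the log2 scale. Etfdh, which hands the electrons to ubiquinone, read 818, 572, 598 and 677 CPM in air, 271, 300.5 and 615 in vehicle and 535, 738, 537 and 758 in nicotine libraries (-0.75 ± 0.20 log2, adjusted p = 0.0274). Etfb, the beta subunit of the flavoprotein, went the other way, at 226, 255, 243 and 270 CPM in air, 650.2, 524 and 233 in vehicle and 409.8, 289.9, 331 and 224 in nicotine libraries (0.92 ± 0.22 log2, adjusted p = 0.0211). Its high readings were again in vehicle libraries 1 and 2, and vehicle library 4 read as in air. The alpha subunit Etfa fell by 0.40, so that the ratio of Etfa to Etfb per length was 0.471 and 0.655 in vehicle libraries 1 and 2, 2.1 in vehicle library 4 and 1.86 to 2.33 in air.

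Of the 6 enzymes of hydration, further oxidation and thiolysis, 5 fell. Hadha and Hadhb encode the subunits of the trifunctional protein that carries out these steps on long chains. Hadha read 1825, 1446, 1473 and 1725 CPM in air, 810.2, 840.5 and 1546 in vehicle and 1507, 1798, 1468 and 1870 in nicotine libraries (-0.60 ± 0.16 log2, adjusted p = 0.0272). Hadhb read 1154, 921, 926 and 1067 CPM in air, 452, 554 and 1042 in vehicle and 861, 1261, 911 and 1264 in nicotine libraries (-0.58 ± 0.19 log2, adjusted p = 0.0478). The subunits moved side by side, with a ratio of Hadha to Hadhb per length of 1.05 to 1.35 over the 23 libraries. Acat1, the acetoacetyl-CoA thiolase, fell by 0.48, the hydroxyacyl-CoA dehydrogenase Hadh by 0.36 and the short-chain hydratase Echs1 by 0.35 on the log2 scale. The thiolase Acaa2 did not pass (-0.13 ± 0.10 log2, adjusted p = 0.312).

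Of the 4 auxiliary enzymes for unsaturated acids, 1 fell. Eci2, an enoyl-CoA isomerase, fell by 0.33 (adjusted p = 0.0414), reading 141, 110.1, 116 and 139 CPM in air, 92.2, 93.1 and 117 in vehicle and 132, 132, 124 and 131 in nicotine libraries. Decr1, the dienoyl-CoA reductase, read 374, 306, 297 and 375 CPM in air, 316, 325 and 319 in vehicle and 410, 386, 368 and 378 in nicotine libraries. The vehicle readings of Decr1 lay within the air range (-0.08 ± 0.09 log2, adjusted p = 0.55), and Eci1 (-0.14 ± 0.11, 0.368) and Ech1 (0.03 ± 0.12, 0.874) did not pass either.

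Among thioesterases, uncoupling proteins and the droplet coat, 2 of 6 fell. Acot2, the mitochondrial thioesterase, read 79.4, 75, 66.4 and 65.5 CPM in air, 42.2, 44.3 and 66.9 in vehicle and 80.1, 74.6, 74 and 78.8 in nicotine libraries (-0.48 ± 0.15 log2, adjusted p = 0.0405). Plin5, which ties lipid droplets to mitochondria, read 144, 135, 131 and 119 CPM in air, 87, 90 and 111 in vehicle and 142, 131, 134 and 133 in nicotine libraries (-0.46 ± 0.14 log2, adjusted p = 0.033). Vehicle libraries were the lowest 3 of the 11 for Plin5 and vehicle libraries 1 and 2 the lowest for Acot2. Acot1, the cytosolic thioesterase and the scarcest member, read 5.92, 12, 6.32 and 5.64 CPM in air, 4.41, 3.47 and 7.05 in vehicle and 10.1, 9.46, 9.52 and 10.5 in nicotine libraries (-0.59 ± 0.31 log2, adjusted p = 0.164). Acot13 read 227, 219, 224 and 231 CPM in air, 374, 313 and 197 in vehicle and 288, 218, 251 and 209.8 in nicotine libraries and was high in the same vehicle libraries as Etfb (0.39 ± 0.15 log2, adjusted p = 0.0683). Ucp2 (-0.44 ± 0.17, 0.0657) and Ucp3 (-0.46 ± 0.38, 0.375) did not pass.

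**Figure D2:**
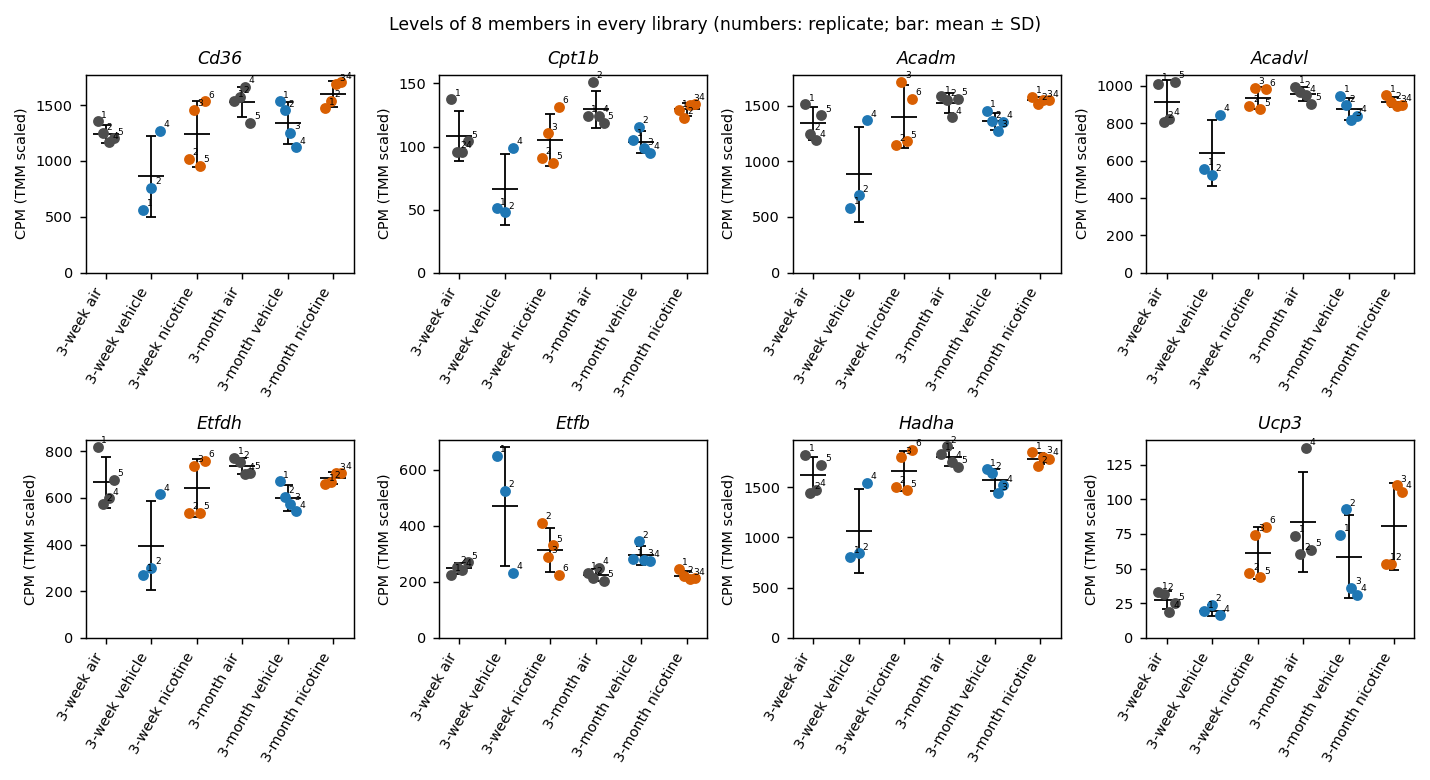
CPM of 8 members (panels) in every library by group, with points numbered by library and bars for mean ± SD. In 3-week vehicle, points 1 and 2 sit below air for Cd36, Cpt1b, Acadm, Acadvl, Etfdh and Hadha and above it for Etfb, and point 4 sits near air. Ucp3 is higher in 3-week nicotine (43.8 to 80.1 CPM) than in 3-week air (18.9 to 32.9 CPM).

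Because vehicle libraries 1 and 2 leaned toward short genes, fold changes were set against exonic length. The median over all genes tested was 0.428 log2 under 1 kb, 0.228 from 1 to 2 kb, 0.0342 from 2 to 4 kb and -0.0728 above 4 kb. Members of 2 to 4 kb had a median of -0.465 (16 members, 9 called lower, against 7.48% of genes of that length) and those above 4 kb one of -0.473 (13 members, 9 called lower, against 8.11%), both under the gene medians of their length class. Of the 4 members with positive fold changes, 3 are short: Etfb has 1164 exonic bases, Acot13 744 and Fabp3 823. With an offset for length in the fit, 21 members were called (1 higher, 20 lower) against 15.4% of genes, with a median of -0.47. Under that offset Etfb stood at 0.60 ± 0.15 log2 (adjusted p = 0.0252), Eci2 (adjusted p = 0.0634) and Hadh (0.059) no longer passed, and Acaa2, Fabp3 and Mlycd were called lower. In the fit of all 23 libraries without the offset, 3 of the 8 cardiomyocyte markers rose and 2 fell (62.5% called, against 16.2% of all genes). With the younger libraries alone 0 of 14856 genes passed. Atrial markers summed to 577 CPM in vehicle library 2, 149 in library 1 and 173 in library 4. The part of marker levels, noncoding genes and blood transcripts in these changes was not tested.

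**Figure D3:**
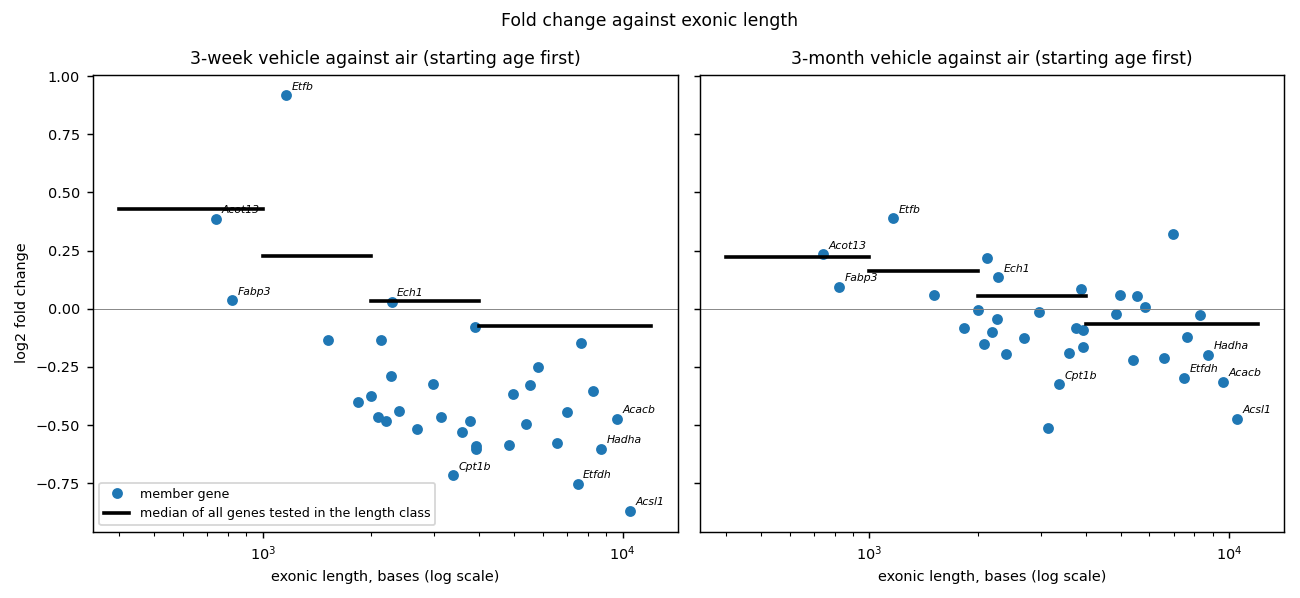
Log2 fold change of vehicle against air for each member (points) against exonic length on a log axis, with the median of all genes tested in each of 4 length classes (black bars), for the 3-week start (left) and the 3-month start (right). The bars step down from 0.428 to -0.0728 on the left and from 0.221 to -0.066 on the right, and on the left most members lie under the bar of their class.

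Nicotine aerosol from 3 weeks was next set against air of that age. The members had a median log2 fold change of 0.06 over the 34 members and 0.02 over all genes, and 0 members passed, against 0.813% of genes (0.0903% higher and 0.723% lower), and 4 members had an unadjusted p under 0.05, with 12.8% of genes. Ucp3, a mitochondrial carrier that heart and skeletal muscle induce when fatty acids are plentiful, had the smallest p. Its readings were 32.9, 32, 18.9 and 24.9 CPM in air, 19.1, 23.7 and 16.4 in vehicle and 46.6, 74.2, 43.8 and 80.1 in nicotine libraries. Every nicotine library was above every air library, by 1.17 ± 0.35 log2 or 2.25-fold, though edgeR gave an adjusted p = 0.113 (0.0989 to 0.656 over the other edgeR and limma fits run, and 0.0296 with DESeq2). In the authors' deposited table Ucp3 was the 1 member of 34 called, with a log2 fold change of 1.15 and an adjusted p of 0.00208, where 0.971% of 14217 genes were called. Ucp3 was the 1 member of 34 higher without overlap, which is near the share of all genes (2.57%). No member was lower without overlap (2.63% of genes). Slc27a1 (0.29 ± 0.10 log2, adjusted p = 0.177) and Decr1 (0.19 ± 0.09, 0.355) had the next smallest p. Nicotine libraries 2 and 5, in which levels leaned most toward short genes (rank correlations with length of -0.346 and -0.296, against 0.108 and 0.211 in libraries 3 and 6), held less Cd36, Acsl1, Cpt1b, Acadm, Etfdh, Hadhb and Echs1 than any air library, and libraries 3 and 6 held more Cd36, Acadm, Hadhb and Echs1 than any. In library 2, 8 of 34 members lay below all air libraries and 11 above (29.5% and 29.8% of all genes), and in library 5 it was 9 and 8 (27.9% and 28%). In library 3 it was 2 below and 12 above (20.1% and 22.1%), and in library 6 it was 4 and 12 (19.7% and 19.4%). The members' shares below air in libraries 2 and 5 are thus near those of all genes. All 5 blood markers tested had positive fold changes with nicotine, each at an unadjusted p under 0.05 (median 0.84 log2), and summed to 1089 to 1410 CPM against 506 to 934 in air, without overlap. All 6 atrial markers tested were negative (median -1.05 log2, 1 at an unadjusted p under 0.05), and genes that are not protein coding took 1.42% to 3.18% of counts against 1.19% to 1.55%. The part of length, blood, atrial and noncoding transcripts in the nicotine readings was not tested.

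Between nicotine and vehicle aerosol of the younger start, 32 of 34 fold changes were positive, with a median of 0.47 log2 against -0.02 over all genes. No member and no gene passed (0 of 15500). At an unadjusted p under 0.05 there were 30 members, against 19.3% of genes. The smallest p values were those of Slc27a1 (0.54 ± 0.10 log2, adjusted p = 0.0783), Cpt2 (0.47 ± 0.11, 0.122) and Mlycd (0.51 ± 0.12, 0.122), and Ucp3 had the largest fold, 3.1 (1.63 ± 0.39 log2, adjusted p = 0.122). For 14 members every nicotine library was above every vehicle library, against 2.52% of genes: Slc27a1, Cpt1a, Cpt2, Mlycd, Acadvl, Acads, Acaa2, Eci1, Eci2, Decr1, Acot1, Acot2, Ucp3 and Plin5. For 0 members was it the reverse (2.36% of genes). This comparison shares its vehicle libraries with that against air, so the fold changes are not a separate observation. Without vehicle library 4, 30 members passed (28 higher, 2 lower) with 30.3% of genes, and without vehicle libraries 1 and 2 the median of the members was 0.121. DESeq2 called 21 members higher, with 1.64% of genes, and limma with sample weights 28 (26 higher, 2 lower), with 19% of genes. The limma fit gave vehicle library 4 a weight of 0.151, the lowest of all libraries.

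**Figure D4:**
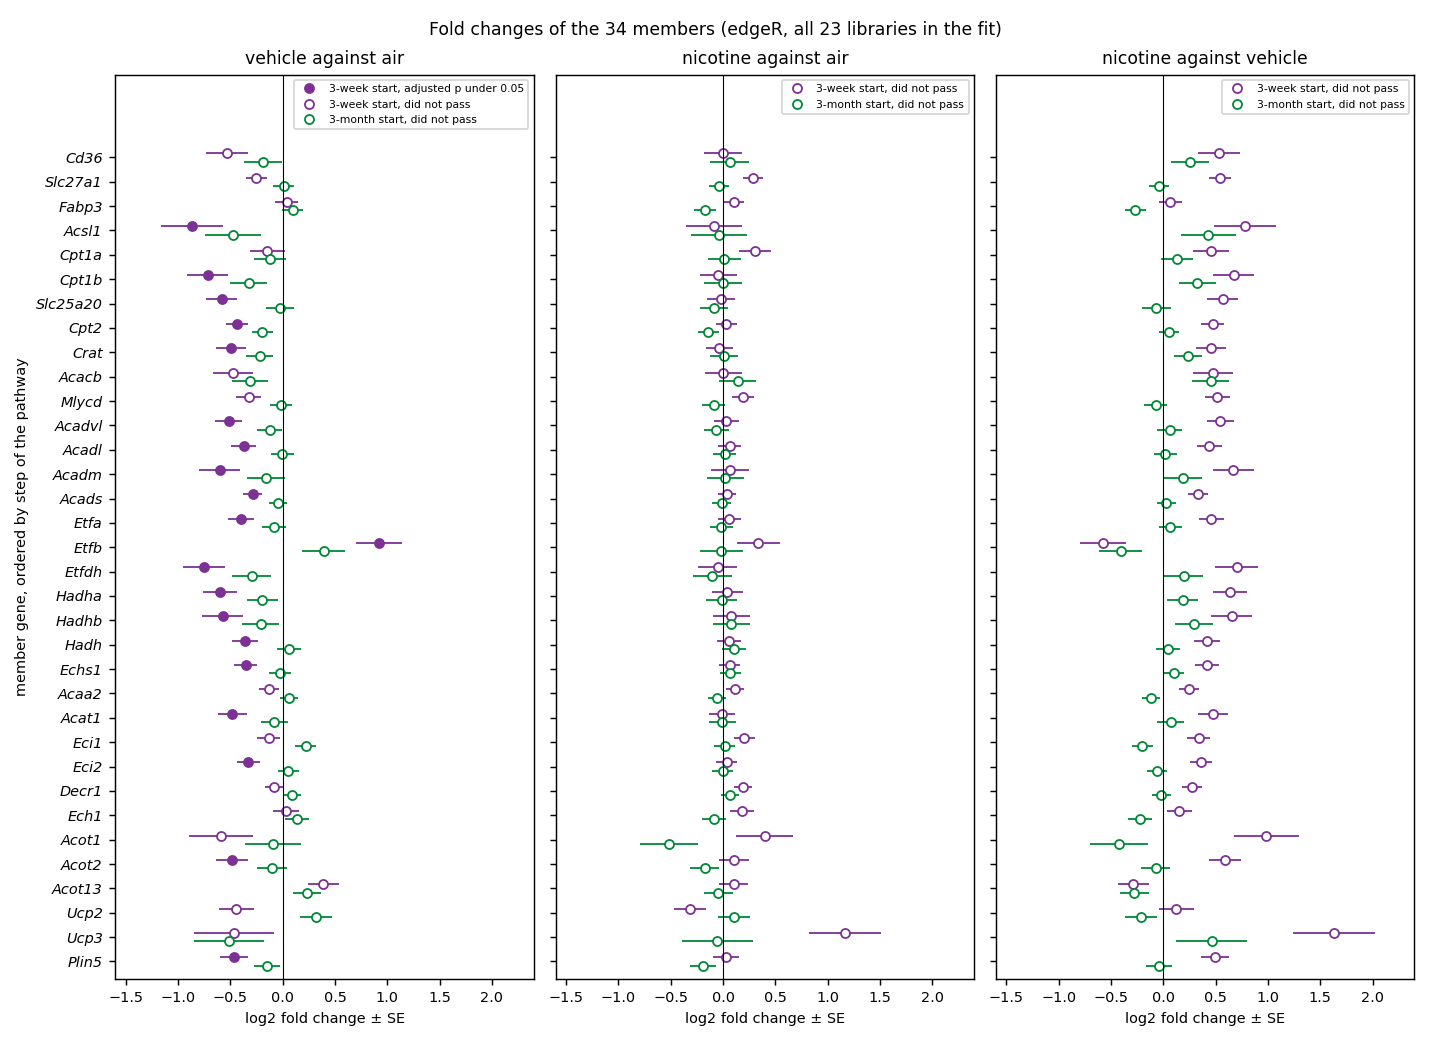
Log2 fold change ± SE of each member (rows) in vehicle against air, nicotine against air and nicotine against vehicle, for the 3-week start (purple) and the 3-month start (green). Filled points passed an adjusted p of 0.05 in the edgeR fit of all 23 libraries, all 20 of them in 3-week vehicle against air. In the right panel 32 of 34 purple points lie above 0.

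Vehicle aerosol was then compared with air in mice exposed from 3 months of age. With all 23 libraries in the fit 0 of 34 members and 0 of 15500 genes passed against air (2 members had an unadjusted p under 0.05, with 14.2% of genes), and the median of the members was -0.08 log2 against 0.01 over all genes. The older libraries vary less than the younger ones, and a fit of the 12 older libraries alone called 11 members, 4 higher and 7 lower, with 18.7% of 14526 genes. The values that follow in this comparison are from that fit. Activation and the shuttle lay among the lower: Acsl1 (-0.46 ± 0.09 log2, adjusted p = 0.00274), Cpt1b (-0.32 ± 0.08, 0.00964), Crat (-0.21 ± 0.06, 0.0169) and Acacb (-0.30 ± 0.09, 0.021). Of the oxidation steps, Etfdh (-0.29 ± 0.07, 0.00681), Hadhb (-0.20 ± 0.06, 0.0257) and Hadha (-0.19 ± 0.06, 0.0311) fell. Etfb (0.40 ± 0.08, 0.00465), Acot13 (0.24 ± 0.07, 0.0226), Eci1 (0.23 ± 0.07, 0.0292) and Ucp2 (0.33 ± 0.11, 0.0483) rose.

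The levels behind these calls were close together. Acsl1 read 905, 1097, 936 and 1004 CPM in air, 824, 698, 692 and 627 in vehicle and 825, 954, 1036 and 1014 in nicotine libraries. Cpt1b read 124, 151, 125 and 119 CPM in air, 105, 116, 98.6 and 95 in vehicle and 129, 123, 133 and 134 in nicotine libraries. In both, every vehicle library was below every air library, as in 6 members in all (11.6% of genes), with Crat, Etfdh, Hadha and Hadhb. Etfdh read 772, 755, 703 and 709 CPM in air, 672, 604, 574 and 542 in vehicle and 658, 668, 704 and 708 in nicotine libraries. Hadha read 1833, 1909, 1754 and 1702 CPM in air, 1678, 1642, 1441 and 1519 in vehicle and 1847, 1710, 1800 and 1782 in nicotine libraries. Hadhb read 1203, 1202, 1104 and 1178 CPM in air, 1090, 1065, 961 and 933 in vehicle and 1209, 1185, 1280 and 1282 in nicotine libraries. The trifunctional subunits and Etfdh were thus 1441 to 1678, 933 to 1090 and 542 to 672 CPM in vehicle, below air in all 4 libraries. Etfb read 233, 215, 249.9 and 203 CPM in air, 281, 345, 278 and 275 in vehicle and 247, 219, 211 and 212 in nicotine libraries. Eci1 read 372, 359, 358 and 324 CPM in air, 407, 457, 374 and 406 in vehicle and 387, 358, 346 and 338 in nicotine libraries. Acot13 read 209, 227, 226 and 199.7 CPM in air, 248, 279.9, 246 and 238 in vehicle and 227, 216, 189 and 204 in nicotine libraries. These 3 were higher in vehicle without overlap, against 8.52% of genes. Ucp2 read 71.5, 73.1, 75.7 and 75.1 CPM in air, 102, 104, 87.5 and 75.3 in vehicle and 74.7, 87.1, 63.4 and 92 in nicotine libraries, where vehicle library 4 lay within the air range. Genes that are not protein coding took 1.56% to 1.74% of counts in vehicle against 1.31% to 1.53% in air, without overlap. Of 6 atrial markers tested 4 had an unadjusted p under 0.05 (median -1.94 log2), with summed levels of 166 to 236 CPM in vehicle and 126 to 322 in air. The part of these in the calls was not tested. All 4 vehicle libraries leaned toward short genes, with rank correlations of -0.244 to -0.111 against 0.0901 to 0.305 in air. With a length offset in the fit of the older libraries, 9 members were called with 14.4% of genes: Etfb and Ucp2 higher, and Acadvl, Acsl1, Cpt1b, Cpt2, Crat, Etfa and Etfdh lower.

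Members central to the pathway that were not called in that fit had overlapping air and vehicle groups. Only for Acadm did every nicotine reading lie above every vehicle reading. Cd36 read 1540, 1576, 1661 and 1343 CPM in air, 1535, 1454, 1251 and 1122 in vehicle and 1470, 1536, 1685 and 1704 in nicotine libraries, with vehicle libraries 3 and 4 below all air libraries and vehicle library 1 near their middle. Acadm read 1584, 1555, 1395 and 1562 CPM in air, 1457, 1361, 1274 and 1354 in vehicle and 1580, 1516, 1550 and 1548 in nicotine libraries, with 3 vehicle libraries under the lowest air library, itself apart from the other air readings. Acadvl read 996, 968, 949 and 906 CPM in air, 946, 897, 818 and 839.7 in vehicle and 949.9, 912, 894 and 898 in nicotine libraries. Cpt2 read 248, 237, 209.5 and 226 CPM in air, 204, 221, 189 and 189 in vehicle and 204, 215, 206 and 209 in nicotine libraries. For both, vehicle and nicotine readings lay in the lower part of the air range or below it. Slc25a20 read 161, 169, 156 and 140 CPM in air, 162, 167, 149 and 138 in vehicle and 152, 145, 148 and 143 in nicotine libraries. Decr1 read 360.1, 344, 350.2 and 339.8 CPM in air, 383, 406, 349 and 340 in vehicle and 364, 339.8, 380.5 and 376 in nicotine libraries. Acot2 read 87.6, 85, 96.6 and 72.8 CPM in air, 89, 95.9, 70.7 and 63.1 in vehicle and 71.8, 66.5, 84.3 and 80.2 in nicotine libraries, and Acot1 read 10.6, 7.24, 12.7 and 5.54 CPM in air, 8.9, 11.7, 7.42 and 5.76 in vehicle and 6.2, 4.99, 7.75 and 6.3 in nicotine libraries. In these 4 members the 3 groups overlapped.

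Nicotine aerosol from 3 months against air gave the flattest profile when all libraries were in the fit. The median of the members was -0.02 log2 with all libraries in the fit (0.01 over all genes), 0 members and 0 genes passed, and all 34 adjusted p-values were 1. No member had an unadjusted p under 0.05 in that fit, against 2.63% of genes. The smallest p were those of Acot1 (-0.51 ± 0.28 log2), Fabp3 (-0.17 ± 0.10) and Plin5 (-0.19 ± 0.12). Fabp3 read 3106, 3007, 3364 and 2669 CPM in air, 3255, 3768, 2994 and 2959 in vehicle and 2858, 2573, 2614 and 2722 in nicotine libraries. Plin5 read 176, 177, 191 and 128 CPM in air, 179, 169.5, 132 and 122 in vehicle and 153, 139, 151 and 143 in nicotine libraries. For both, air library 5 held the lowest air reading, which lay within the nicotine range for Fabp3 and below all nicotine readings for Plin5. Hadh was the 1 member of 34 with every nicotine library above every air library, which is near the share of all genes (1.99%). In this way 0 members were lower (1.71% of genes). Hadh read 212, 218, 217 and 224 CPM in air, 221, 252, 209 and 225 in vehicle and 241, 227, 226 and 239 in nicotine libraries (0.10 ± 0.11 log2). The authors' deposited table called 0 of 34 members, with 0.307% of 13991 genes.

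Nicotine against vehicle of the older start likewise gave 0 members with all libraries in the fit (0 of 15500 genes, and 2 members against 12.2% of genes at an unadjusted p under 0.05). The fit of the 12 older libraries called 9 members with 16.6% of genes. Acacb (0.43 ± 0.09 log2, adjusted p = 0.00407), Acsl1 (0.41 ± 0.09, 0.00573), Hadhb (0.27 ± 0.06, 0.00682), Cpt1b (0.30 ± 0.08, 0.013) and Crat (0.21 ± 0.06, 0.0193) were higher with nicotine. Acacb, which makes the malonyl-CoA that restrains Cpt1, read 407, 478, 348 and 414 CPM in air, 332, 332, 312 and 350.1 in vehicle and 391, 457, 488 and 479 in nicotine libraries. Its nicotine readings were above all vehicle readings, as in 7 members in all (12.2% of genes). Etfb (-0.43 ± 0.08, 0.00372), Acot13 (-0.30 ± 0.07, 0.00857), Fabp3 (-0.29 ± 0.08, 0.0188) and Eci1 (-0.22 ± 0.07, 0.0346) were lower. Of these, Etfb, Acot13 and Fabp3 were without overlap (6.66% of genes). The vehicle libraries are those of the comparison with air. With the length offset 7 members were called with 11.7% of genes, Etfb lower and Acacb, Acadm, Acsl1, Cpt1b, Etfa and Hadhb higher.

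Starting age was compared in air alone, and in the difference of each aerosol's effect between ages. Air from the 3-month start held more Ucp3 than air from the 3-week start, at 73.5, 60.8, 137 and 63.4 against 32.9, 32, 18.9 and 24.9 CPM, without overlap (1.62 ± 0.35 log2, 3.07-fold). This missed the threshold (adjusted p = 0.133), and 0 members passed, with 0.00645% of genes (1 gene), while 4 members had an unadjusted p under 0.05, with 9.08% of genes. Without 3-month air library 4, the highest reading, the difference was 1.27 log2 (adjusted p = 0.349), and DESeq2 (0.00395) and limma with sample weights (0.0221) put it past the threshold. Ucp3 was the 1 member of 34 higher without overlap, which is near the share of all genes (2.15%), and none was lower (2.85%). Plin5 (0.34 ± 0.12 log2, adjusted p = 0.385) and Cpt1a (0.40 ± 0.16, 0.434) had the next smallest p. Cpt1a read 40.1, 42.4, 56.6 and 44.6 against 35.5, 35, 41.2 and 28 CPM. The older Ucp3 readings after aerosol were 74.1, 92.8, 36.1 and 31 CPM in vehicle and 53.4, 53.3, 110 and 105 CPM in nicotine, both groups split between lower and higher libraries. Skeletal muscle markers summed to 75.9 to 98.1 CPM in 3-month air against 49.8 to 61.1 in 3-week air, without overlap, mostly from Mybpc2, while Myh1, Myh2 and Myh4 were at most 0.214 CPM in any library. All 8 macrophage markers had negative fold changes between these groups (median -0.38 log2, 4 at an unadjusted p under 0.05). Their part in the Ucp3 difference was not tested.

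The vehicle effect was lower at the younger than at the older start in 31 of 34 members, with a median difference of -0.33 log2 against 0.01 over all genes, and 0 members and 0 genes passed (9 members at an unadjusted p under 0.05, against 12% of genes). The smallest p were those of Ucp2 (-0.76 ± 0.23 log2, adjusted p = 0.215), Slc25a20 (-0.56 ± 0.20, 0.279) and Eci2 (-0.38 ± 0.14, 0.31). Ucp2 had a negative fold change at the younger start (-0.44) and a positive one at the older start (0.32), with 3-week readings of 86, 62.7, 77.5 and 93.1 CPM in air, 49.4, 73.4 and 53.4 in vehicle and 76.1, 51.3, 70.1 and 58.4 in nicotine libraries. Without 3-week vehicle library 4, 19 members passed (1 higher, 18 lower) with 9.3% of genes. Limma with sample weights, where that library had a weight of 0.151, called 14, with 3.85%. Without 3-week vehicle libraries 1 and 2 the median difference of the members was -0.02 log2, so most of it rests on these libraries. The nicotine effect differed between ages in 0 members, with 0.135% of genes (0.0323% higher, 0.103% lower), and 3 members had an unadjusted p under 0.05, with 10.2% of genes. Its smallest p were for Ucp3 (1.22 ± 0.48 log2, adjusted p = 0.337), Slc27a1 (0.32 ± 0.14, 0.39) and Acot1 (0.91 ± 0.39, 0.402).

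Other genes of the pathway were counted from 5 lists, with 72 genes tested. In 3-week vehicle against air, 12 of these fell and 4 rose, or 22.2% against 16.2% of all genes, with a median of -0.24 log2. Among regulators and PPAR targets 3 of 14 were called. Pdk4, a kinase that holds back pyruvate oxidation and is induced by PPAR, fell by 2.37 log2, from 456 ± 248 to 88.3 ± 36.5 CPM (mean ± SD, n = 4 and 3), the nuclear receptor Ppard fell by 0.51, and the binding protein Fabp4, which capillary endothelium expresses, rose by 0.73. Further mitochondrial genes gave 6 lower and 1 higher of 16, including Pcca of propionate breakdown (-0.58 ± 0.16 log2), the ketone enzyme Bdh1 (-0.64 ± 0.17), the acetyl-CoA synthetase Acss1 (-0.68 ± 0.21) and the assembly factor Acad9 (-0.82 ± 0.27). Of 16 peroxisomal genes 1 fell, Hsd17b4 (-0.62 ± 0.17), or 6.25% against 6.92% of all genes lower. Of 13 droplet genes, Retsat (-0.54 ± 0.12) and the droplet coat gene Plin4 (-0.69 ± 0.23) fell and the lipase inhibitor G0s2 (1.28 ± 0.42) rose. Of 13 further genes of uptake, activation and carnitine, Slc25a42 (-0.38 ± 0.12), a carrier of coenzyme A, fell and Cpt1c (0.70 ± 0.24) rose. The calls of the other lists rest on the same 7 libraries as those of the members. They are from the fit of all libraries, and in the fit of the younger libraries 0 of 71 list genes passed (median -0.24 log2). In the other comparisons with all libraries in the fit, 0 of the 72 passed.

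In the fit of the older libraries, 9 of the 72 rose and 18 fell with vehicle against air, where 7.64% of all genes were called higher and 11.1% lower. Ppara, the receptor that drives this pathway in heart, was at 14.2 ± 2.42 CPM against 30.9 ± 9.23 (n = 4 each, -1.11 ± 0.20 log2, adjusted p = 0.00334), and the orphan receptor Esrrg fell by 0.53 (adjusted p = 0.00346). Fabp4 (0.61 ± 0.11, 0.00228) and Fabp5 (0.50 ± 0.10, 0.00333) rose. Prkaa2, a catalytic subunit of AMP kinase, fell (-0.68 ± 0.15, 0.0092), and so did Slc25a42 (-0.38 ± 0.08, 0.00546), while the capillary lipase anchor Gpihbp1 (0.53 ± 0.12, 0.00681) and lipoprotein lipase Lpl (0.24 ± 0.06, 0.0098) rose. Gpam, which starts triglyceride synthesis, read 77.2 to 106 CPM in vehicle, 158 to 240.2 in air and 129.9 to 255 in nicotine (-1.19 ± 0.21 log2 against air, adjusted p = 0.00403). Acad11 (-0.50 ± 0.08, 0.00138), the mutase gene Mut (-0.33 ± 0.08, 0.00746) and Oxct1 of ketone use (-0.25 ± 0.06, 0.00882) fell. Against vehicle, nicotine of the older start had 15 of the 72 higher and 7 lower (10.2% and 6.4% of all genes), among them Ppara (1.04 ± 0.20), Esrrg (0.53 ± 0.10) and Gpam (1.21 ± 0.21) higher and Fabp4 (-0.59 ± 0.11) lower. The vehicle libraries are shared between these comparisons.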

How the data were processed

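Left ventricle RNA of 23 libraries in 6 groups was analysed from the deposited whole-number counts per gene. The authors worked with DESeq2, Subread 1.5.2 with its program featureCounts, STAR 2.5.2b and Trimmomatic 0.36, per the submitters' processing notes. Build, annotation and strand were not given in the sources used here. Comparing nicotine with air, the authors' deposited tables hold log2 fold changes, a p-value for each gene and a mean normalized signal, and only their log2 fold changes and adjusted p-values are quoted. A deposited list of gene ontology terms was not used here.

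Counts were fitted in R 4.3.3 with edgeR 4.0.16 (quasi-likelihood test, TMM scaling, filterByExpr with a minimum count of 10, 6 group means over all 23 libraries, 17 residual degrees of freedom, Benjamini-Hochberg adjustment over 15500 genes). CPM are on TMM-scaled library sizes, and fold changes are log2. Gene IDs were looked up in GENCODE vM21 for symbols and for exonic length, with a length for 99.83% of tested genes, and promoters from RefSeq. Alternatives used edgeR with other settings, limma 3.58.1 and DESeq2 1.42.0. The script was tested on simulated counts. All 34 members are accounted for. Readings per library are given for 14 core genes of the pathway and for the 3 members with the smallest p in each comparison, and of other lists at most 4 called genes are named per list and comparison. A few further members and list genes were named after their values were seen. The members and lists were chosen with earlier results of these data known.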

Additional observations from a re-analysis of the deposited data

Results flagged for a closer look

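In 8 of 170 groups of 4 libraries (4.71%), 1 library stood so far from the other 3 that its gap exceeded 0.829 of the group's range, which chance gives in about 1 in 20 groups. Among 3-week libraries, Acsl1 read 1187 CPM in air library 1 against 683.8 to 728.8 in the others, and this reading enters the fall of Acsl1 with vehicle. Acot1 read 12.01 CPM in air library 2 against 5.636 to 6.317. Eci2 read 124.2 CPM in nicotine library 5 against 130.7 to 131.5. Among 3-month libraries, Ucp3 read 136.8 CPM in air library 4 against 60.78 to 73.5, and Acadm read 1395 CPM in the same library against 1555 to 1584. In vehicle library 2, Etfb read 345.4 CPM against 275.1 to 281.1 and Cpt1a 47.88 against 40.13 to 40.6. Acaa2 read 856.8 CPM in nicotine library 1 against 789.1 to 800.1. With edgeR and all libraries in the fit, no member's effect was shown to differ between the starting ages. For the vehicle effect, limma with sample weights called 14 members (3.85% of genes). The edgeR fit without 3-week vehicle library 4 called 19 (9.3% of genes). The median difference of the members was -0.33 log2 with all libraries and -0.02 log2 without 3-week vehicle libraries 1 and 2.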

How the results depend on the processing

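In 3-week vehicle against air the count of called members was 20 with all libraries in the fit and 0 to 25 when 1 library was left out. It was 24 by DESeq2, 26 by limma with sample weights, 11 with no filter on low counts, 0 with libraries of the same starting age only, 0 with the compared groups only, and 0 with the replicate number as a block, while the median of the members stayed at -0.44, -0.45 and -0.44 log2 in these last 3 fits. Chosen after seeing the data, leaving out air libraries 1 and 5 gave 0, leaving out vehicle libraries 1 and 2 gave 0 (median -0.08 log2), and the same starting age with a length offset gave 0. Without vehicle libraries 1 and 2, the sign turned for Etfb (-0.07529 log2), Acadl (0.00462), Acadm (0.0497), Hadhb (0.0524) and Hadh (0.016). The cause was not tested. Fewer libraries in a fit leave fewer degrees of freedom, and the estimate of spread changes as well. The common coefficient of variation was 0.234 in the younger and 0.105 in the older libraries.

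In 3-week nicotine against air DESeq2 called 1 member where edgeR called 0, and leaving out 1 library gave 0 to 0. In 3-week nicotine against vehicle the count was 0, with 21 by DESeq2, 28 by limma with sample weights and 0 to 30 when 1 library was left out. In 3-month vehicle against air it was 0, with 9 by limma, 11 with the same starting age only, 11 with the compared groups only and 9 with the same starting age and a length offset. In 3-month nicotine against vehicle it was 0, with 9, 9, 9 and 7 under those settings. In air by starting age it was 0, with 1 by DESeq2, 1 by limma and 1 without 3-week air libraries 1 and 5. For the difference of the vehicle effect it was 0, with 14 by limma and 0 to 19 when 1 library was left out. In 3-month nicotine against air and the difference of the nicotine effect it was 0 in every fit run. Other scaling (RLE) and the length offset with all libraries gave 21 members each in 3-week vehicle against air and 0 elsewhere.

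Correlations of deviations gave no sign that replicate numbers pair the libraries. They cannot exclude it, since what the numbers mean is not given. In 16 pairs with the same number the median was 0.00855 (-0.37 to 0.283), and 3 pairs were over 0.1. In 72 pairs with different numbers it was -0.00338 (-0.593 to 0.561), and 21 were over 0.1. With the replicate block 0 members were called in every comparison.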

Other observations

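Genes of the respiratory chain, which take up the electrons of beta-oxidation, split within the 3-week vehicle comparison with air. Of 28 nuclear-encoded subunits 5 rose and 4 fell (edgeR with all libraries in the fit, adjusted p under 0.05), with 16.2% of all genes called. In the fit of the younger libraries 0 of 14856 genes passed. Of all genes under 1 kb in this comparison 22.8% were called higher and 2.4% lower, and of those above 4 kb 7.18% and 8.11%. The part of exonic length in the split was not tested. Sdha (-0.57 ± 0.18 log2), Uqcrc2 (-0.52 ± 0.14), Sdhd (-0.39 ± 0.10) and Atp5a1 (-0.33 ± 0.10) fell, and Ndufa1 (0.78 ± 0.20), Cox8b (0.63 ± 0.18), Ndufa4 (0.55 ± 0.17), Cox4i1 (0.53 ± 0.17) and Cox7a1 (0.50 ± 0.17) rose. Of 13 mitochondrially encoded genes, mt-Nd4 (0.40 ± 0.11) and mt-Nd6 (0.77 ± 0.15) rose with vehicle, or 15.4% called against 16.2% of all genes. With nicotine against air mt-Nd6 also rose (0.61 ± 0.14 log2, edgeR adjusted p = 0.0478), or 7.69% called against 0.813%. The 2 comparisons share the air libraries.

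The spread of the members within a group was widest in 3-week vehicle, where the median coefficient of variation over the 34 was 25.5%, against 11.1% in 3-week air, 12.1% in 3-week nicotine, 6.44% in 3-month air, 8.41% in 3-month vehicle and 4.74% in 3-month nicotine. Acsl1 was the most variable member in 3-week vehicle (62.8%) and 3-week nicotine (35.2%), and Ucp3 in the 3 older groups (42.9% in air, 51% in vehicle and 39% in nicotine).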
